A study of Mus musculus with 5 samples.

Results

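The ADAM genes encode zinc metalloproteases of the "a disintegrin and metalloprotease" family, and 10 of them were followed here in Kupffer cells, the resident macrophages of the liver. The members were taken by gene symbol from a count table of 46983 genes: Adamdec1, Adam8, Adam9, Adam10, Adam12, Adam15, Adam17, Adam19, Adam28 and Adam33. Each symbol matched a row of the table. The set was built around Adamdec1, which had been seen among the largest decreases in these libraries. The genotype difference of the members is therefore given as a description, with no p-value of its own.

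RNA was sequenced from Kupffer cells of mice with 1 intact copy of Id3 (Id3+/-, heterozygous, 3 libraries, replicates 1, 2 and 3) and of mice with none (Id3-/-, knockout, 2 libraries, replicates 2 and 3). Id3 encodes a helix-loop-helix protein without a DNA-binding region, which binds E proteins and holds them off DNA. All 5 libraries thus carry at least 1 disrupted Id3 allele, and no wild-type library was analysed here. The count columns of all 5 libraries carry "3w" in their names, with no explanation in the labels. How the allele was made, the strain, any treatment and, apart from that mark, the age are not stated in the sources at hand. The labels do not say whether libraries came from separate animals, so every p-value here reflects library-to-library spread alone, which may be technical. "Rose", "fell" and "called" mean an adjusted p under 0.05 in edgeR over all genes tested.

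Between 74823374 and 80944135 counts per library were assigned to genes. The 10 members together took 0.0292% to 0.0443% of them in heterozygous libraries, against 0.0162% and 0.0170% in knockout libraries. Id3 stood at 221 to 256 CPM (counts scaled to library size) with 1 copy and at 1.01 and 1.42 CPM without, which matches the labels. All 12 Kupffer cell markers were detected, with a summed level of 67935 to 70727 CPM in heterozygous and 75169 and 79076 CPM in knockout libraries. They were divided, with 3 called higher (Marco, C1qb and C1qc) and 0 lower. Without a call, Clec4f, Vsig4, Timd4 and Adgre1 were lower in both knockout libraries than in any heterozygous one. Cd5l, C1qa, Cd68 and Slc40a1 were higher in the same way, and Csf1r overlapped. Libraries of the genotypes did not overlap for 51.5% of all tested genes. Hepatocyte markers summed to 23016 to 28585 CPM in heterozygous libraries and to 5039 and 12106 CPM in knockout replicates 2 and 3. Of these 12 markers 9 were lower and 0 higher, where 10.0% of all tested genes were lower and 6.41% higher. Neutrophil markers summed to 10.6 to 14.2 CPM in the heterozygous libraries, to 222 CPM in knockout replicate 2 and to 40.8 CPM in knockout replicate 3. In bulk RNA, fewer cells of a type and less RNA per cell cannot be told apart. The part of these other cells in the results below was not tested.

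An ADAM protease is typically made as a membrane-anchored precursor. Once its inhibitory prodomain is cut off, it releases the outer parts of neighbouring cell surface proteins, a process called shedding. In macrophages ADAM17 is known for releasing tumour necrosis factor, and ADAM10 for cutting Notch receptors and chemokines that are anchored in the membrane. ADAMDEC1 (ADAM-like, decysin-1) is a shortened, secreted relative that was first described in dendritic cells and maturing macrophages.

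The catalytic site of the family is encoded by a short stretch that sets Adamdec1 apart. ADAM proteases hold the catalytic zinc with 3 histidines, and ADAMDEC1 is known to carry aspartate in place of the last of these. The stretch is shown for Adamdec1, for its chromosomal neighbour Adam28 and for the 3 membrane-anchored members with the highest levels in the heterozygous libraries. Each is 33 bases of coding sequence from GENCODE M21 transcripts, 5′ to 3′, with the 3 zinc-binding codons in capitals.
Adamdec1: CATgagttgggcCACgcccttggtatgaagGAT
Adam28: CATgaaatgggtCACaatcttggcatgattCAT
Adam10: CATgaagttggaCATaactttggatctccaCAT
Adam17: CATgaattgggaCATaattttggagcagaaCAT
Adam9: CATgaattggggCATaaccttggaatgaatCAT
The last capital codon is GAT in Adamdec1 and CAT in each of the 9 other members. The longest open reading frame was also shortest in Adamdec1, at 1404 bases, while the others ranged from 2250 bases (Adam10) to 2763 bases (Adam19).

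Adamdec1 nearly disappeared from the knockout libraries. Heterozygous replicates 1, 2 and 3 held 30.7, 38.8 and 35.8 CPM (2518, 3064 and 2608 counts), and knockout replicates 2 and 3 held 0.517 and 0.801 CPM (39 and 62 counts). The genotypes lay far apart, and the 3 heterozygous libraries differed little among themselves, with a coefficient of variation of 11.8%. The means were 35.1 ± 4.13 CPM (SD, n = 3) and 0.659 ± 0.201 CPM (SD, n = 2), so the knockout level was 1.88% of the heterozygous level, or 53.2-fold lower. The fitted log2 fold change of -5.73 ± 0.26 (SE) was the 90th lowest of the 16436 genes tested. Leaving out any 1 library kept it between -6.07 and -5.45.

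Among the tested genes Adamdec1 moved from the upper to the lower part of the range of levels. Per kilobase of transcript, it stood at 14.4 ± 1.69 CPM (SD, n = 3) in the heterozygous libraries, above 75.6% of the tested genes. In the knockout libraries it stood at 0.270 ± 0.0822 CPM per kilobase (SD, n = 2), above 21.6% of them. Its reads made up 8.69% to 11.95% of all reads of the 10 members in heterozygous libraries, against 0.312% and 0.482% in knockout libraries. For every 100 Adam17 reads there were 19.2 to 26.4 Adamdec1 reads in heterozygous and 0.671 and 0.898 in knockout libraries, a comparison that no scaling between libraries can alter.

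Hepatocyte markers were lower in the same libraries as Adamdec1. The library with the lower hepatocyte sum in the knockout, replicate 2, also had the lower Adamdec1 level. Among the heterozygous libraries the order differed. Replicate 3 had the lowest hepatocyte sum, 23016 CPM, with 35.8 CPM of Adamdec1, while replicate 1 had 25893 CPM with 30.7 CPM of Adamdec1. Log2 fold changes of the 12 hepatocyte markers ran from -2.96 (Fga) to -0.08 (Apoa2), while Ces3b, another gene that hepatocytes make, was at -5.09 ± 0.34 (SE). In a fit that also holds the hepatocyte marker mean of each library, the log2 fold change of Adamdec1 was -4.79 ± 0.47 (SE). The call was lost there, with 2 residual degrees of freedom. That mean was 9.97, 10.12 and 9.98 log2 CPM in heterozygous replicates 1, 2 and 3. In knockout replicates 2 and 3 it was 7.80 and 8.95, so this fit separates it from genotype poorly for any gene. Nothing is read from the order of so few libraries, and the part of hepatocyte RNA in the Adamdec1 value was not tested.

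**Figure D1:**
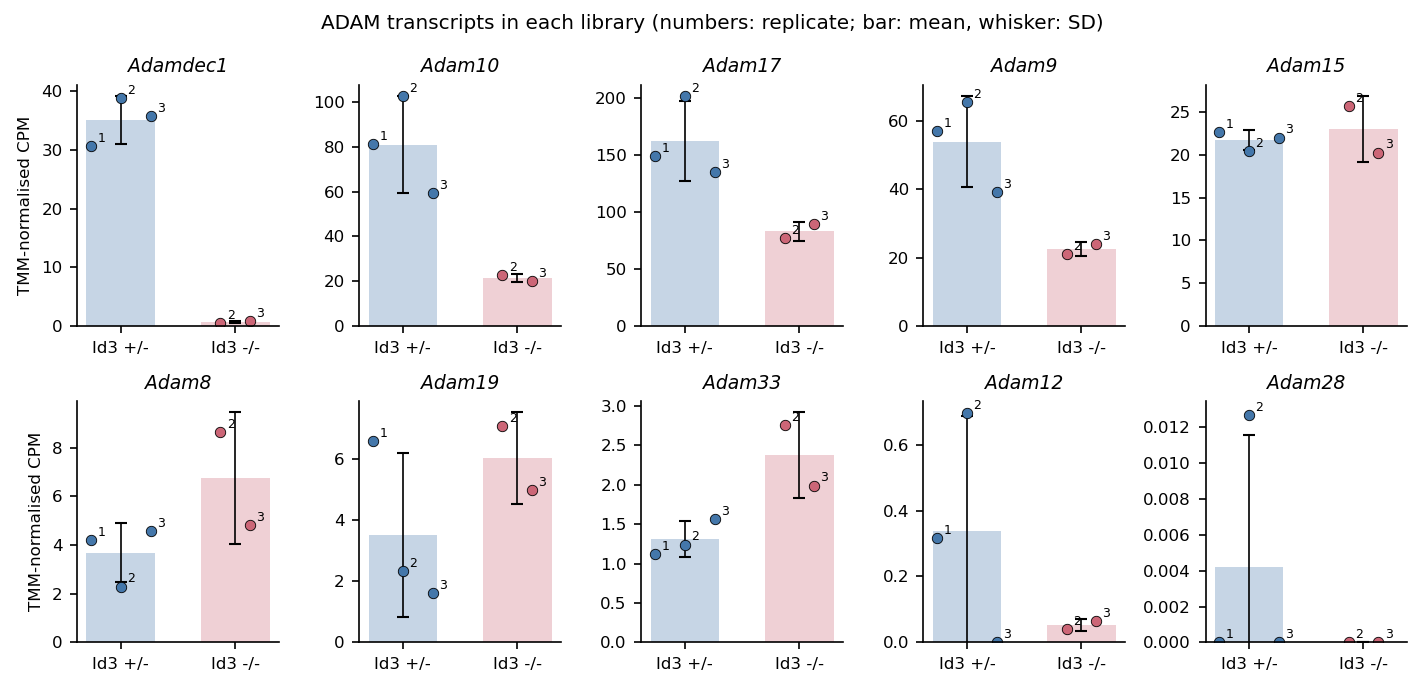
TMM-normalised CPM (vertical axes, each from 0) of the 10 ADAM genes in the 3 Id3+/- and 2 Id3-/- libraries; points are libraries with their replicate number, bars are means and whiskers are SD. Adamdec1, Adam10, Adam17 and Adam9 are lower in both knockout libraries than in any heterozygous one, Adam8 and Adam33 are higher, and the other genes overlap.

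The genes beside Adamdec1 on its chromosome gave almost no reads. In GENCODE M21 the nearest protein-coding genes on chromosome 14 are Adam7, Nefl and Nefm on the one side and Adam28, Stc1 and Nkx2-6 on the other. Adam7, a sperm-associated member, had 5 counts in knockout replicate 3 and 0 elsewhere. Stc1, the hormone stanniocalcin, had 11 and 2 counts in heterozygous replicates 1 and 2 and 0 in the other libraries. Adam28, known from lymphocytes, had 1 count in heterozygous replicate 2 and 0 in the other 4 libraries, which allows up to 0.0365 to 0.0412 CPM (3 counts per library, counting error only). It was the only member too low to be tested. Adamdec1 was thus the only gene of this neighbourhood with more than 11 counts in a library, in either genotype.

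Adam10, Adam17 and Adam9, the membrane-anchored sheddases with the highest levels in the heterozygous libraries, fell together with Adamdec1. With no minimum fold, 4 of the 9 tested members were lower and 0 higher (edgeR quasi-likelihood test, adjusted p under 0.05), where 10.0% of all tested genes were lower, 6.41% higher and 16.4% called in either direction. At an unadjusted p under 0.05, 1 member was higher and 4 were lower, and limma-voom and DESeq2 also called 0 higher and 4 lower. Over the 16436 genes tested, 5499 had an unadjusted p under 0.05, limma-voom called 17.5% and DESeq2 27.7%. The median log2 fold change of the 9 was -0.96, beside -0.02 over all genes tested. With upper-quartile scaling the split over all genes was 1443 higher and 1499 lower, in place of 1054 and 1644, and the same 4 members passed. Adamdec1 had been chosen from this contrast, and Adam12 passed the filter on low counts through the heterozygous libraries alone. Nothing is therefore read from these counts or from the median of the 9.

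Adam10, which encodes the alpha-secretase that cuts amyloid precursor protein and Notch, held 81.0, 102.7 and 59.3 CPM in heterozygous replicates 1, 2 and 3. Knockout replicates 2 and 3 held 22.7 and 20.1 CPM, so every knockout library lay below every heterozygous one. The means were 81.0 ± 21.7 CPM (SD, n = 3) and 21.4 ± 1.80 CPM (SD, n = 2), and the log2 fold change was -1.92 ± 0.24 (SE), or -2.10 to -1.71 on leaving out 1 library. After Adamdec1 it had the largest decrease of the members that passed the test.

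Adam17, which encodes the tumour necrosis factor converting enzyme, held 149, 202 and 135 CPM in heterozygous replicates 1, 2 and 3. The knockout libraries held 77.0 and 89.2 CPM, below each of the heterozygous values. Means of 162 ± 35.1 CPM (SD, n = 3) and 83.1 ± 8.57 CPM (SD, n = 2) gave a log2 fold change of -0.96 ± 0.19 (SE). The call was lost without heterozygous replicate 1 (-1.02), heterozygous replicate 2 (-0.77) or knockout replicate 2 (-0.86). Adam17 shares 311 annotated bases with Iah1 on the opposite strand, and whether the counting used strand is not stated in the sources at hand. Iah1 itself had 1480 to 2028 counts per library and a log2 fold change of -0.04 ± 0.18. Longer overlaps with opposite-strand transcripts are annotated for Adam15 (9290 bases) and Adam19 (3334 and 1118 bases). The transcript over Adam15 had 20 to 25 counts per library, and those over Adam19 had 0. What these overlaps do to the member counts was not tested.

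Adam9, known as meltrin gamma and as a sheddase of growth factor precursors, held 57.1, 65.6 and 39.3 CPM in heterozygous replicates 1, 2 and 3. In knockout replicates 2 and 3 it held 21.2 and 23.9 CPM, again without overlap. The means were 54.0 ± 13.4 CPM (SD, n = 3) and 22.5 ± 1.94 CPM (SD, n = 2), with a log2 fold change of -1.26 ± 0.23 (SE). The call was lost without heterozygous replicate 1 (-1.22), heterozygous replicate 2 (-1.09) or knockout replicate 2 (-1.18). Heterozygous replicate 2 was the highest and replicate 3 the lowest of the heterozygous libraries for Adam9, Adam10 and Adam17 alike.

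These 3 sheddases did not fall in equal measure. For every 100 Adam17 reads there were 54.4, 50.8 and 43.8 Adam10 reads in heterozygous replicates 1, 2 and 3, against 29.4 and 22.5 in knockout replicates 2 and 3. The corresponding Adam9 reads were 38.3, 32.5 and 29.0 against 27.5 and 26.8, which lie much closer together. Adam10 thus took a smaller part of the sheddase reads in both knockout libraries than in any heterozygous one. Adam17 supplied 42.2% to 46.3% of all member reads with 1 copy of Id3, and 46.5% and 53.7% without it.

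**Figure D2:**
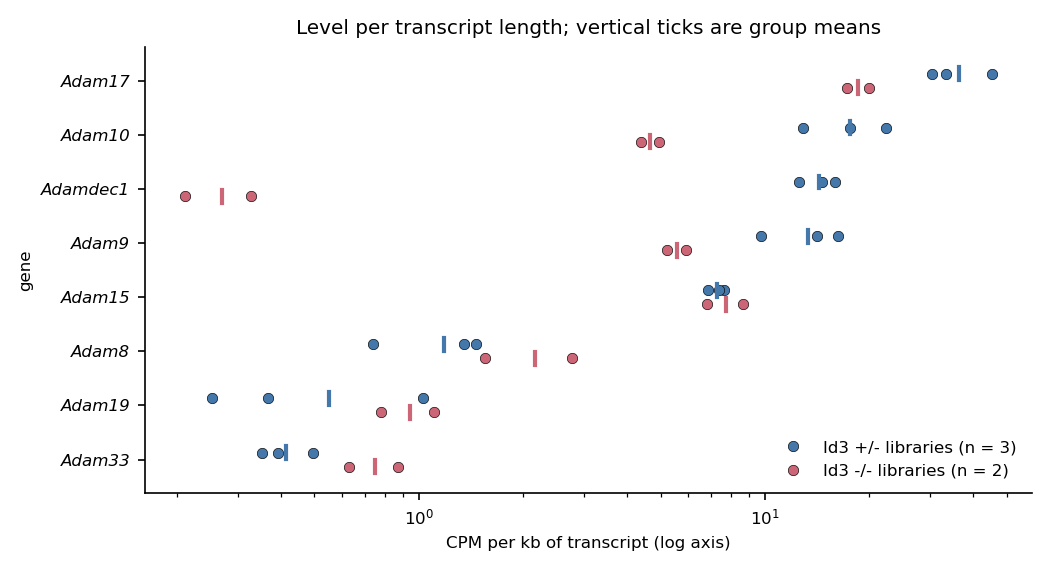
CPM per kilobase of transcript (horizontal log axis) of 8 ADAM genes in each Id3+/- (blue) and Id3-/- (red) library, with group means as ticks; Adam12 and Adam28 are left out because at least 1 library had 0 counts. Adamdec1 drops from the 3rd place among the heterozygous means to below Adam33 in the knockout, while Adam17 stays the highest.

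The order of the members by level per kilobase differed between the genotypes. In the heterozygous libraries Adam17 led with 36.3 ± 7.86 CPM per kilobase (SD, n = 3), above every library's value for the next gene. Adam10 (17.6 ± 4.72), Adamdec1 (14.4 ± 1.69) and Adam9 (13.4 ± 3.32) followed, and neighbours among these 3 overlapped between libraries. Adam15 stood apart below them at 7.29 ± 0.387, followed by Adam8 (1.19 ± 0.394), Adam19 (0.551 ± 0.420) and Adam33 (0.414 ± 0.0727). Adam8 and Adam19 overlapped, as did Adam19 and Adam33, and Adam12 and Adam28 came last with overlapping ranges.

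In the knockout libraries Adam17 still led, with 18.6 ± 1.92 CPM per kilobase (SD, n = 2). Adam15 (7.73 ± 1.30) came next, ahead of Adam9 (5.57 ± 0.481), Adam10 (4.65 ± 0.392), Adam8 (2.16 ± 0.868), Adam19 (0.944 ± 0.234) and Adam33 (0.750 ± 0.172). Adamdec1 was 8th. Among the knockout neighbours in this order, Adam19 and Adam33 were the only pair whose libraries overlapped, with 2 libraries each.

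Adam15, which encodes metargidin, a member that also binds integrins, was the steadiest of the set. It held 22.65, 20.42 and 21.995 CPM in heterozygous replicates 1, 2 and 3 and 25.7 and 20.3 CPM in knockout replicates 2 and 3. The ranges overlapped, and the log2 fold change was 0.08 ± 0.15 (SE). Its sign turned without knockout replicate 2 (-0.10), with offsets for transcript length and GC content (-0.06) and with the hepatocyte covariate (-0.44), so no direction is given. Against a lower total of member reads, Adam15 made up 4.68% to 7.34% of them in heterozygous libraries, but 15.5% and 12.2% in knockout replicates 2 and 3.

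Adam8 and Adam33 lay higher in both knockout libraries than in any heterozygous one, without passing the test. Libraries of the genotypes did not overlap for 51.5% of all genes tested, with 24.6% higher and 26.9% lower in the knockout. Adam8, a protease of granulocytes and macrophages, held 4.22, 2.29 and 4.57 CPM in heterozygous replicates 1, 2 and 3 and 8.66 and 4.83 CPM in knockout replicates 2 and 3. The knockout libraries were thus unlike each other, and replicate 3 lay close to the heterozygous range. The log2 fold change of Adam8 was 0.87 ± 0.39 (SE), and 0.38 without knockout replicate 2, the library with 222 CPM of neutrophil markers. With the hepatocyte covariate it turned to -0.55 ± 0.78. The part of neutrophil RNA in this value was not tested.

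Adam33, known from airway smooth muscle and fibroblasts, held 1.12, 1.24 and 1.57 CPM in heterozygous replicates 1, 2 and 3. The knockout libraries held 2.76 and 1.99 CPM, from 208 and 154 counts. Its log2 fold change was 0.86 ± 0.33 (SE), and leaving out 1 library gave 0.60 to 1.09. Of 10 stellate cell and fibroblast markers, 3 were lower and 1 higher (10.0% and 6.41% over all genes), and no marker was at 0 in all libraries. Their sum of 412 to 448 CPM in heterozygous libraries and of 508 and 450 CPM in knockout replicates 2 and 3 was mostly Ecm1, which was not called. The other 9 summed to 122, 114 and 113 CPM in heterozygous replicates 1, 2 and 3 and to 66.6 and 76.3 CPM in knockout replicates 2 and 3, which is the opposite direction. The part of these cells in the Adam33 value was not tested, and with the hepatocyte covariate the log2 fold change was 0.16.

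Adam19 and Adam12, the meltrins beta and alpha known from muscle and mesenchyme, varied too much within a genotype to be placed. Adam19 held 6.59, 2.34 and 1.62 CPM in heterozygous replicates 1, 2 and 3 and 7.08 and 4.97 CPM in knockout replicates 2 and 3. Heterozygous replicate 1 lay within the knockout range, and the log2 fold change of 0.78 ± 0.59 (SE) became 1.60 without it and -0.14 with the hepatocyte covariate. Adam12 held 0.317, 0.697 and 0 CPM in heterozygous replicates 1, 2 and 3 and 0.0398 and 0.0646 CPM in knockout replicates 2 and 3, from 26, 55, 0, 3 and 5 counts. It passed the filter on low counts through the heterozygous libraries alone, and its log2 fold change of -2.66 ± 1.70 (SE) carried the largest error of the 9. With limma-voom it was -1.11.

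**Figure D3:**
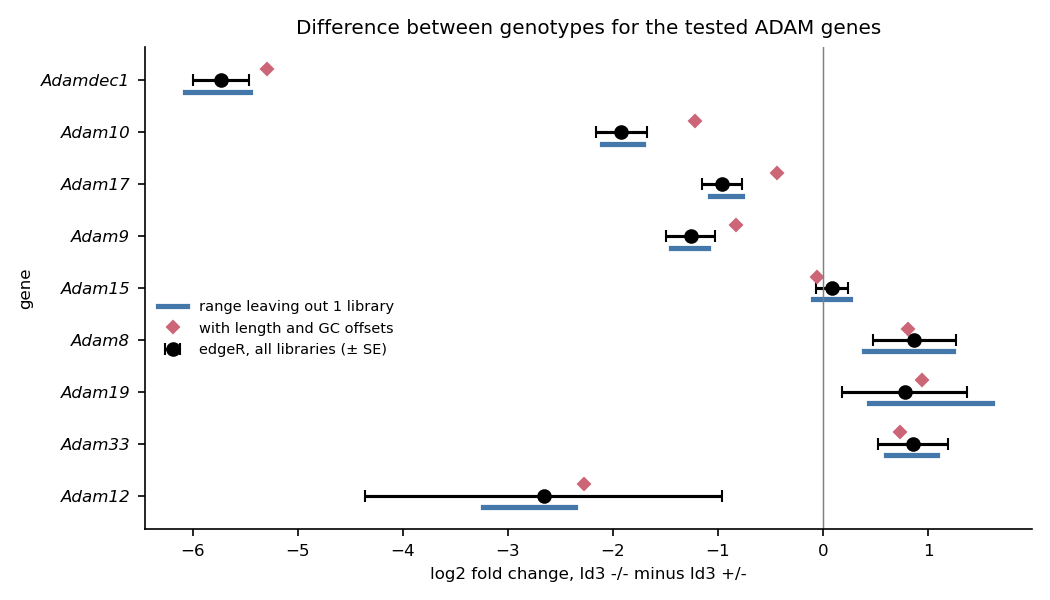
Log2 fold change (horizontal axis, Id3-/- minus Id3+/-) of the 9 tested ADAM genes: black points with SE from edgeR on all 5 libraries, blue lines the range on leaving out 1 library, red diamonds the value with offsets for length and GC content. Adamdec1 lies at -5.73, Adam10, Adam9 and Adam17 lie below 0 at every setting drawn, and Adam15 straddles 0.

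Length and base composition moved with the genotype over the whole table. Genes in the quartile of shortest transcripts had a median log2 fold change of 0.21, those in the longest -0.33. By GC content, the median was -0.45 for the poorest quartile but 0.28 for the richest. Adam10 (4593 bases, 42.1% GC) and Adam17 (4469 bases, 45.1% GC) both belong to the longest and the least GC-rich quartile. The 1426 tested genes sharing both quartiles had a median of -0.59. Of these genes, 29.8% had a lower value than Adam17 and 5.68% a lower one than Adam10. Adam9 (4044 bases, 46.6% GC) lay below the median of -0.20 of its 993 companions, 8.46% of which were lower still.

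With offsets for length and GC content, Adam10 stayed past the threshold at a log2 fold change of -1.22 ± 0.17 (SE), a smaller decrease than without them. Adam9 also stayed past it, at -0.83 ± 0.16. Adam17 went to -0.44 ± 0.13 and lost its call. Adamdec1 (2442 bases, 43.4% GC) remained at -5.30 ± 0.24. Only 0.814% of the 860 genes in its own length and GC quartiles were lower than it. Adam15, Adam8 and Adam33 share the GC-rich quartile, whose 975 genes of like length had a median of 0.26.

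**Figure D4:**
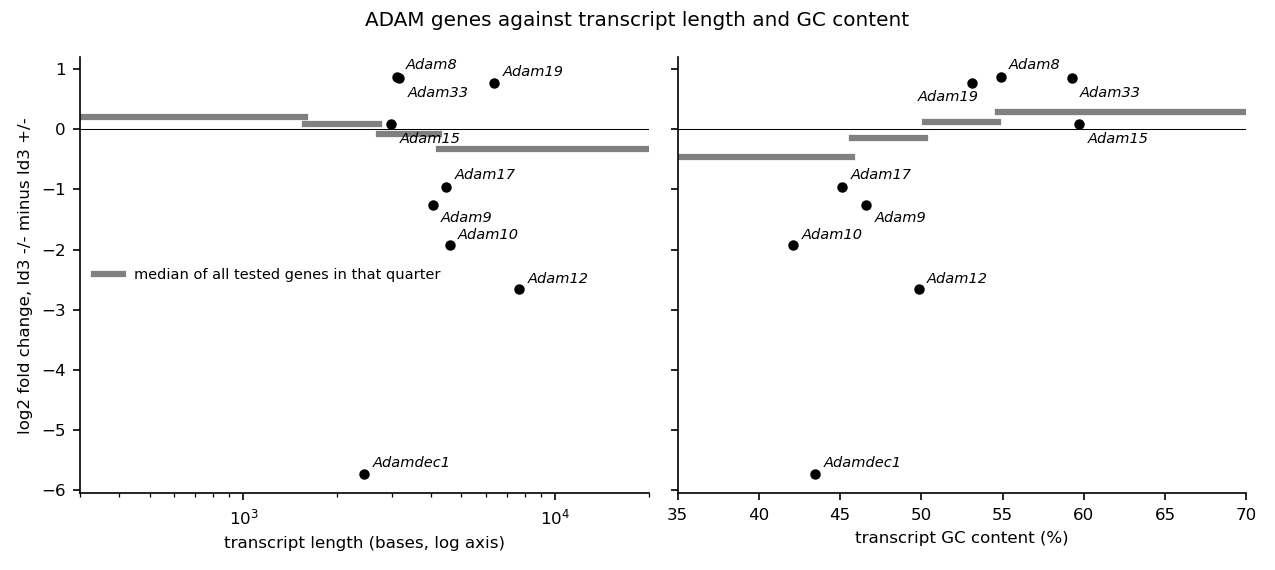
Log2 fold change (vertical axis, Id3-/- minus Id3+/-) of the 9 tested ADAM genes against transcript length in bases (left, log axis) and GC content in percent (right); grey lines are medians of all tested genes in each quartile, drawn across the range shown. Adam10, Adam17 and Adam9 lie below the grey lines, Adam8, Adam19 and Adam33 above them, and Adamdec1 lies far below.

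The 5 genes whose profile over the 5 libraries lay closest to that of Adamdec1 were Cd200r4, Mup21, Ces3b, Ugt2b37 and Cyp4a12a. They were taken from 11237 genes with a mean of at least 1 CPM, with unnamed gene models left out. Closeness was the Euclidean distance between log2 CPM profiles (prior count of 2) centred on their means. It ran from 0.373 for Cd200r4 to 1.01 for Cyp4a12a. Cd200r4, a receptor of the CD200 receptor family on myeloid cells, held 2.68, 2.67 and 3.02 CPM in heterozygous and 0.0265 and 0.0517 CPM in knockout replicates. Ces3b, a carboxylesterase of hepatocytes, held 66.0, 61.2 and 46.3 CPM against 1.19 and 2.20 CPM. The major urinary protein Mup21, the glucuronosyltransferase Ugt2b37 and the fatty acid hydroxylase Cyp4a12a all ranged from 1.26 to 2.88 CPM in the heterozygous libraries and did not exceed 0.0388 CPM in the knockout ones. All but Ces3b were so low in the knockout libraries that the prior count sets much of their distance. Fitted log2 fold changes were -6.10 for Cd200r4, -7.09 for Mup21, -6.45 for Ugt2b37 and -10.4 for Cyp4a12a, beside -5.73 for Adamdec1. Except for Cd200r4 these genes belong to families that hepatocytes make, and all 5 have close paralogs that the counting may split.

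Genes that mature or restrain ADAM10 and ADAM17 moved in both directions. Of 20 tested regulators, 4 were higher and 3 lower in the knockout, where 6.41% of all tested genes were higher and 10.0% lower, and the median log2 fold change was 0.05. DESeq2 called 8 higher and 3 lower, as did an unadjusted p under 0.05, and limma-voom called 5 and 2. These compare with 27.7% of all tested genes called by DESeq2, 17.5% by limma-voom and 5499 of 16436 at an unadjusted p under 0.05. Rhbdf2, which encodes the inactive rhomboid iRhom2 that carries ADAM17 to the cell surface in macrophages, rose from 150 ± 11.2 (SD, n = 3) to 270 ± 25.2 CPM (SD, n = 2). Its log2 fold change was 0.85 ± 0.11 (SE, edgeR adjusted p = 0.00977), and the call was lost without heterozygous replicate 2 (0.87). Rhbdf2 and Adam17 changed in opposite directions in the same libraries. Both lost their calls without heterozygous replicate 2, but in that fit 2.09% of all tested genes passed, in place of 16.4%. The shared loss is therefore not read as a link between them. With length and GC offsets Rhbdf2 stayed past the threshold (0.78), while Adam17 (-0.44) did not.

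Pcsk6, a proprotein convertase of the furin family, which removes prodomains, had the largest decrease in this list. It went from 22.9 ± 2.33 to 4.28 ± 0.245 CPM (-2.42 ± 0.17, edgeR adjusted p = 0.00291), and passed on leaving out each library. Pdia6, a disulfide isomerase, fell from 648 ± 21.98 to 419 ± 24.3 CPM (-0.63 ± 0.09, edgeR adjusted p = 0.0115), and lost the call without heterozygous replicate 1 (-0.64) or 2 (-0.64). Tspan10, a tetraspanin of the group that escorts ADAM10, rose from 0.155 ± 0.0778 to 0.997 ± 0.241 CPM (2.66 ± 0.60, edgeR adjusted p = 0.0343). Its call was lost on leaving out any of the 5 libraries, with values of 2.39 to 3.14, and with length and GC offsets (2.44). Tspan15, of the same tetraspanin group, was abundant at 561 ± 57.1 and 766 ± 119 CPM and did not pass (0.45 ± 0.13), except without knockout replicate 3 (0.61). P4hb, protein disulfide isomerase, had 1558 ± 62.5 and 1437 ± 12.3 CPM without passing (-0.12 ± 0.08).

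Surface proteins known to be shed by ADAM proteases were also divided. Of 45 tested substrates, 7 were higher and 6 lower in the knockout (6.41% and 10.0% over all genes), with a median log2 fold change of -0.27. DESeq2 called 8 higher and 11 lower, limma-voom 6 and 7, and 8 and 12 had an unadjusted p under 0.05. Among all tested genes DESeq2 called 27.7% and limma-voom 17.5%, and 5499 of 16436 had an unadjusted p under 0.05. Hbegf, a membrane-anchored growth factor released by ADAM17, rose from 29.0 ± 1.55 (SD, n = 3) to 57.1 ± 6.30 CPM (SD, n = 2), with a log2 fold change of 0.98 ± 0.12 (SE, edgeR adjusted p = 0.00938). Cxcl16, a chemokine anchored in the membrane and released by ADAM10, rose from 290 ± 7.64 to 457 ± 14.99 CPM (0.66 ± 0.08, edgeR adjusted p = 0.00938). The costimulatory receptor Cd40 rose from 32.8 ± 1.19 to 63.4 ± 8.42 CPM (0.95 ± 0.12, edgeR adjusted p = 0.00974). Cd163, a receptor for haemoglobin complexes that ADAM17 sheds, fell from 472 ± 40.9 to 228 ± 15.2 CPM (-1.05 ± 0.11, edgeR adjusted p = 0.00705).

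Hbegf and Cd163 passed on leaving out each library. Cxcl16 lost its call without heterozygous replicate 1 (0.66) or 2 (0.65), and Cd40 without heterozygous replicate 2 (0.95). The growth factor receptor Csf1r and the engulfment receptor Axl were the most abundant substrates not called, at 9228 ± 421 and 10353 ± 2251 CPM and at 3058 ± 140 and 3674 ± 657 CPM. Their log2 fold changes of 0.17 ± 0.14 and 0.26 ± 0.12 became 0.38 and 0.45 without knockout replicate 3, where both passed. Without knockout replicate 2 they were -0.08 and 0.07.

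The gamma-secretase complex cuts within the membrane what ADAM proteases have trimmed. Of its genes and those of beta-secretase, 9 were tested, 2 were higher and 0 lower (6.41% and 10.0% over all genes), with a median log2 fold change of 0.31. At an unadjusted p under 0.05, 5 were higher and 2 lower, limma-voom also called 2 and 0, and DESeq2 called 5 and 2. The whole table gave 5499 of 16436 at an unadjusted p under 0.05, 17.5% by limma-voom and 27.7% by DESeq2. Ncstn, which encodes the subunit nicastrin, rose from 457 ± 8.44 to 605 ± 45.1 CPM (0.40 ± 0.08, edgeR adjusted p = 0.0289). Aph1c, a scaffold subunit with a close paralog in Aph1b, rose from 10.8 ± 1.2005 to 17.5 ± 2.25 CPM (0.70 ± 0.17, edgeR adjusted p = 0.0401). Aph1b moved the other way without a call, from 24.3 ± 7.08 to 12.5 ± 0.343 CPM (-0.96 ± 0.27). How the counting split reads between these paralogs was not tested.

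The Ncstn call was lost without heterozygous replicate 1 (0.39), heterozygous replicate 2 (0.40) or knockout replicate 2 (0.32). For Aph1c it was lost on leaving out any of the 5 libraries, with values of 0.56 to 0.84. Psen2, which encodes a catalytic subunit, was not called, at 50.2 ± 4.85 and 54.0 ± 3.78 CPM (0.11 ± 0.12).

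**Figure D5:**
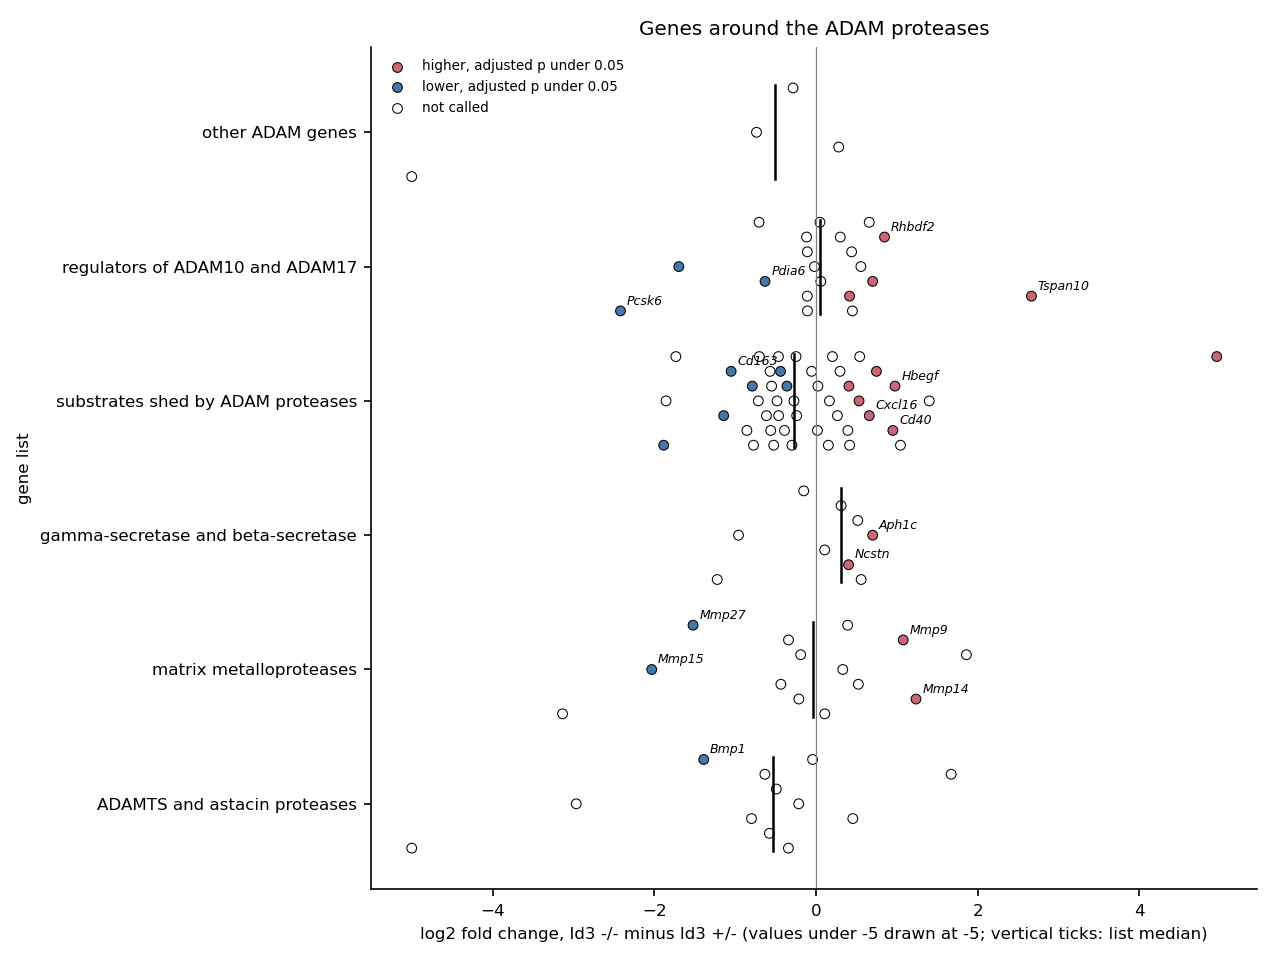
Log2 fold change (horizontal axis, Id3-/- minus Id3+/-) of each tested gene in 6 lists around the ADAM proteases; red and blue points passed the test as higher and lower, white points did not, and vertical ticks are list medians. Passing genes lie on both sides of 0 among the regulators, the substrates and the matrix metalloproteases.

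Among other metalloproteases, the matrix metalloproteases gave 2 higher and 2 lower of 14 tested (6.41% and 10.0% over all genes), with a median log2 fold change of -0.04. Mmp14, a membrane-anchored collagenase, rose from 22.1 ± 3.64 (SD, n = 3) to 52.1 ± 0.130 CPM (SD, n = 2), with a log2 fold change of 1.24 ± 0.15 (SE, edgeR adjusted p = 0.00974). Mmp9, a gelatinase that neutrophils also store, rose from 98.7 ± 9.60 to 209 ± 71.4 CPM (1.08 ± 0.21, edgeR adjusted p = 0.024). Its highest value, 259 CPM, was in knockout replicate 2, which also held the most neutrophil marker reads, and the part of those cells was not tested. Mmp15 changed by -2.03 ± 0.35 (edgeR adjusted p = 0.018) and Mmp27 by -1.52 ± 0.38 (edgeR adjusted p = 0.0424). Mmp12, the macrophage elastase, varied from 10.8 to 44.0 CPM among the heterozygous libraries and did not pass (-0.19 ± 0.66), and Mmp19 did not either (-0.34 ± 0.15).

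Of these calls, that of Mmp14 was lost without heterozygous replicate 2 (1.19). Mmp9 lost its call without any heterozygous library (1.00 to 1.13) and without knockout replicate 2 (0.68). Mmp15 lost it without heterozygous replicate 1 (-1.91), heterozygous replicate 2 (-1.94) or knockout replicate 2 (-1.81). Mmp27 passed only in the fit without knockout replicate 3 (-2.16), and stood between -1.68 and -1.07 in the other 4. It also lost the call with length and GC offsets (-1.26). Mmp12 took the opposite sign without heterozygous replicate 1 (0.76) or knockout replicate 2 (0.22).

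Of 12 tested ADAMTS and astacin proteases 1 was lower and 0 higher (10.0% and 6.41% over all genes), with a median log2 fold change of -0.53. At an unadjusted p under 0.05, 1 was higher and 3 lower, and limma-voom and DESeq2 also called 0 higher and 1 lower. Across all tested genes these were 5499 of 16436 at an unadjusted p under 0.05, 17.5% by limma-voom and 27.7% by DESeq2. The gene called was Bmp1, a procollagen C-proteinase, which fell from 40.0 ± 2.85 (SD, n = 3) to 15.3 ± 5.82 CPM (SD, n = 2), by a log2 fold change of -1.39 ± 0.25 (SE, edgeR adjusted p = 0.0197). It lost the call without heterozygous replicate 1 (-1.35) or 2 (-1.37). Adamts10 (0.45 ± 0.17) and Adamts7 (-0.58 ± 0.29) were the most abundant of the others in CPM and did not pass.

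Of 24 further ADAM genes in the table, mostly testis-specific members, 4 had enough reads to be tested and 0 passed in edgeR. At an unadjusted p under 0.05 there was 1 lower, with 0 by limma-voom and 1 lower by DESeq2. Shares over all tested genes were 16.4% in edgeR, 17.5% by limma-voom and 27.7% by DESeq2, with 5499 of 16436 at an unadjusted p under 0.05. Adam23, a member without protease activity that binds integrins, held 20.4, 18.8 and 13.5 CPM in heterozygous replicates 1, 2 and 3. Knockout replicates 2 and 3 held 9.77 and 11.3 CPM, with no overlap. Its log2 fold change of -0.74 ± 0.22 (SE, edgeR adjusted p = 0.0685) passed without heterozygous replicate 3 (-0.89) and was -0.27 with offsets for length and GC content. Adam22, its relative, was at 1.53 ± 0.823 and 1.26 ± 0.143 CPM (-0.28 ± 0.52) and took the opposite sign without heterozygous replicate 2 (0.23).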

How the data were processed

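The deposited values are raw read counts per gene for 5 libraries, made by the authors with HTSeq 0.5.4 on mouse build mm9 per the submitters' processing notes, which also name DESeq 1.18.0 and R 3.1.2. Neither aligner, annotation nor strand setting is stated in the sources at hand. Rows that name no gene (40.0% to 48.6% of all counted) were left out.

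Genotypes were compared as knockout minus heterozygous by the quasi-likelihood test of edgeR 4.0.16 under R 4.3.3 (TMM scaling, filterByExpr for low counts, no covariate), adjusted over 16436 genes by Benjamini-Hochberg at 0.05. Levels are TMM-normalised CPM, except for the sums of marker genes, which are CPM on the library total of gene counts without TMM factors. The SE is the log2 fold change divided by the square root of F. Transcript lengths and GC content are those of the longest basic transcript in GENCODE M21 (GRCm38), matched by gene ID for 16389 tested genes and used for no coordinates. The fit was tested on simulated data.

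Members and lists were chosen with earlier results of these data known. Named genes were the 10 members and, per list, up to 4 passing genes by smallest p and 2 others by mean CPM. Beside these, Id3, 5 profile neighbours and 3 chromosomal neighbours on each side of Adamdec1 were named. A gene that this rule names is not reported here. Iah1 was added afterwards for its overlap with Adam17, and Aph1b as the paralog of Aph1c. Marker lists covered Kupffer cells, hepatocytes, neutrophils, monocytes, dendritic cells, B and plasma cells, T and NK cells, sinusoidal endothelium, and stellate cells with fibroblasts. Alternatives were DESeq2 1.42.0, limma-voom (limma 3.58.1), other scalings and filters, robust fitting, a replicate block, length and GC offsets, a hepatocyte covariate and leaving out each library.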

Additional observations from a re-analysis of the deposited data

How the results depend on the processing

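Across 16 alternatives, Adamdec1 and Adam10 kept their direction and lost the call in 2, Adam9 lost it in 5 and Adam17 in 6. All these fits reuse the libraries from which Adamdec1 was chosen and whose results were known. Passing in them is therefore no separate support for a member. With RLE, upper-quartile or library size scaling, other filters, robust fitting, limma-voom or DESeq2 the same 4 members passed. Over all genes, 2698 passed with all 5 libraries and no covariate, 1418 with length and GC offsets (3 members) and 4557 with DESeq2. Leaving out 1 library gave 335 to 2540 genes (463 and 335 without heterozygous replicates 1 and 2, and 903 when knockout replicate 2 was left out), and 2 (without each of these 3 in turn) to 4 members, and Adamdec1 and Adam10 passed in each of these 5 fits. Of the partner genes, 27 passed in that fit, 43 with DESeq2 and 3 to 27 on leaving out 1 library (6 and 3 without heterozygous replicates 1 and 2, and 12 when knockout replicate 2 was left out). With the replicate block, 1 gene passed, with 0 members and 0 partner genes (3497, 5 and 34 at an unadjusted p under 0.05, on 1 residual degree of freedom). Same-numbered samples did not deviate together (correlations -0.03 and -0.06). Both values rest on the same difference between the 2 knockout libraries, so they cannot decide whether the numbers pair samples. With the hepatocyte covariate, 0 genes, 0 members and 0 partner genes passed in edgeR (2019, 2 and 20 at an unadjusted p under 0.05, on 2 residual degrees of freedom), and Adam8 (-0.55), Adam15 (-0.44) and Adam19 (-0.14) turned below 0, while Adam17 was at -0.55, Adam9 at -0.91, Adam33 at 0.16 and Adam10 at -2.04 ± 0.63. Adam15 also did with length and GC offsets (-0.060), and on leaving out 1 library it ranged from -0.10 (without knockout replicate 2) to 0.26. Adam12 could not be fitted without heterozygous replicate 1 or 2 or with the stricter filter. Monocyte markers summed to 154 to 268 CPM in heterozygous and 199 and 285 CPM in knockout libraries, mostly from Plac8. The other 5 summed to 4.51, 12.9 and 3.60 CPM in heterozygous replicates 1, 2 and 3. In knockout replicates 2 and 3 they summed to 44.9 and 16.3 CPM. Of 5 tested monocyte markers, 1 was higher (Ly6c2) and 0 lower (6.41% and 10.0% over all genes). Dendritic cell markers summed to 17.6 to 23.0 CPM in heterozygous and 17.5 and 26.1 CPM in knockout libraries. In the same order, B and plasma cell markers summed to 99.6 to 149 and 133 and 218 CPM. T and NK cell markers summed to 14.1 to 50.9 and 50.03 and 112 CPM, and sinusoidal endothelial markers to 1458 to 1789 and 1265 and 1276 CPM.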
